A study of Saccharomyces cerevisiae with 24 samples.

Results

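The genes described here are 10 genes of the pheromone response of *Saccharomyces cerevisiae*, namely *SST2* (YLR452C), *PRM1* (YNL279W), *AGA1* (YNR044W), *FUS1* (YCL027W), *FUS2* (YMR232W), *FUS3* (YBL016W), *FIG1* (YBR040W), *FAR1* (YJL157C), *KAR4* (YCL055W) and *STE12* (YHR084W). They are 10 of the 6571 genes in the count tables. In the R64 annotation their coding sequences lie as follows: *SST2* at chrXII:1039270-1041366, *PRM1* at chrXIV:110917-112902, *AGA1* at chrXIV:703699-705876, *FUS1* at chrIII:71803-73341, *FUS2* at chrXIII:736926-738959, *FUS3* at chrII:192451-193512, *FIG1* at chrII:316968-317864, *FAR1* at chrX:123836-126328, *KAR4* at chrIII:27929-28936 and *STE12* at chrVIII:274174-276240. They were chosen by name, on earlier results of these data, so the sense-strand differences between mutant and wild type, and the edgeR calls counted among them, are a description of that choice and support nothing further.

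RNA was sequenced with strand kept, in 24 libraries that form 8 groups of 3 biological replicates. All strains were *MATa his3Δ200 lys2-128Δ ura3-52 trp1Δ63*, and were grown in rich medium to log phase, at an OD600 of 0.8 to 1, with no pheromone named in the labels. The WT untagged strain had no epitope tags, and the WT tagged strain carried *3xHA-RTF1* and *RAD6-13xMYC::KanMX*. The rad6Δ untagged strain was *rad6Δ::KanMX*, and the rad6Δ tagged strain was *3xHA-RTF1 rad6Δ::KanMX*. The H2B-K123R strain was untagged and carried the substitution in both H2B genes (*HTA1-htb1K123R*, *HTA2-htb2-K123R*). The other mutants were tagged: rtf1-108-110AAA had *3HA-rtf1-108-110AAA* with *RAD6-13xMYC::KanMX*, and rad6-R6Q and rad6-R6A,M10A had *3xHA-RTF1* with the *rad6* allele fused to 13xMyc and KanMX. Mutants were set against the wild type with matching tags, so 4 comparisons share the 3 WT tagged libraries and 2 share the 3 WT untagged libraries. The labels do not say whether the replicates of a group came from separate transformants.

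Rad6 is the ubiquitin-conjugating enzyme that, with the ligase Bre1, attaches ubiquitin to the histone H2B lysine that K123R replaces. Rtf1, a subunit of the Paf1 complex, stimulates this step during transcription. In the mating pathway of *MATa* cells, alpha-factor binds the receptor Ste2 and frees the G protein beta-gamma pair Ste4 and Ste18. These activate a kinase cascade that ends in the MAP kinase Fus3, which activates the transcription factor Ste12. Ste12 binds pheromone response elements in the promoters of genes for signalling, cell cycle arrest, cell fusion and nuclear fusion, and the pathway has a low activity without pheromone.

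The promoters of 5 of the genes are shown because they carry the pheromone response element. The sequences come from the R64 genome, 250 to 51 bases before the start codon, 5′ to 3′ on the gene's own strand. Capitals mark TGAAACA or its reverse complement TGTTTCA, the core that Ste12 binds. *FUS1* lies on the plus strand and the stretch is chrIII:71553-71752, *PRM1* on the plus strand (chrXIV:110667-110866), *KAR4* on the plus strand (chrIII:27679-27878), *SST2* on the minus strand (chrXII:1041417-1041616) and *FUS2* on the plus strand (chrXIII:736676-736875). *FUS1*, *PRM1* and *KAR4* are shown for their repeated elements, *SST2* as the gene with the highest level in WT untagged, and *FUS2* as a gene with the element whose level did not follow the others.
FUS1: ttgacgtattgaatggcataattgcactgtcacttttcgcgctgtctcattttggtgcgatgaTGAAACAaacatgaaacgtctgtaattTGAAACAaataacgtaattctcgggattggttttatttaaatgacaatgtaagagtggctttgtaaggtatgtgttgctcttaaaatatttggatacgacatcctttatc
PRM1: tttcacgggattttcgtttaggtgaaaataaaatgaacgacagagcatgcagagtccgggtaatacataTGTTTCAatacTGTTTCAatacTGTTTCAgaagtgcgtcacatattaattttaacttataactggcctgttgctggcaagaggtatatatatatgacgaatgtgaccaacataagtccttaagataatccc
KAR4: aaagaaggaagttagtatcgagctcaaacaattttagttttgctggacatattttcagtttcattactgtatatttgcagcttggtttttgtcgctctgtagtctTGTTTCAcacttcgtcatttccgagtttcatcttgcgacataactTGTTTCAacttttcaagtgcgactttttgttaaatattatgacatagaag
SST2: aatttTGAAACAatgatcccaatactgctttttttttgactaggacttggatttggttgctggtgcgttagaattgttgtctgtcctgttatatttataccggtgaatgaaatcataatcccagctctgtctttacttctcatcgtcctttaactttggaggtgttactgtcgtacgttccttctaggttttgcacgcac
FUS2: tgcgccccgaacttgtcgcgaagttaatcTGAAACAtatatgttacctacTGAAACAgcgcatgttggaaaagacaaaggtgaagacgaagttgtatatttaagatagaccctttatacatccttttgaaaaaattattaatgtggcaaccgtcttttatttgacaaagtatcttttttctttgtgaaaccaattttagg

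In windows from 250 bases before to 50 bases after the start codon, 7 of the 10 genes had at least 1 match to TGAAACA on either strand, beside 450 of 6001 protein-coding genes (7.5%). *PRM1* had 3 matches, on the opposite strand and 181, 170 and 159 bases before the start codon. *FUS1*, *FUS2* and *KAR4* had 2 each, and *SST2*, *AGA1* and *FUS3* had 1 each. There were 4 genes of 10 with 2 or more matches, beside 25 of all promoters (0.417%). *FIG1*, *FAR1* and *STE12* had none in this window. The shorter core TGAAAC, which lies inside TGAAACA, was found in 9 of 10, all but *STE12*, and in 19.9% of all promoters. A match is a description of the letters, not of binding.

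**Figure D1:**
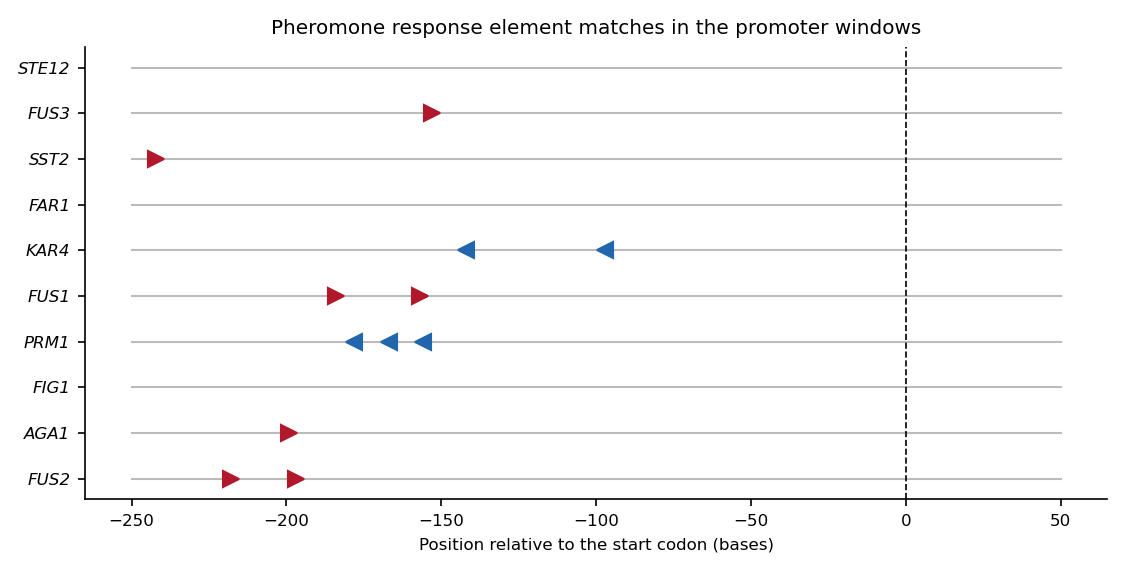
Positions of TGAAACA matches (triangles, pointing right on the gene's strand and left on the opposite strand) relative to the start codon (dashed line), in bases, for the 10 genes. Matches lie between 245 and 100 bases before the start codon, and *STE12*, *FAR1* and *FIG1* have none.

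Libraries held 7227245 to 10782960 sense counts in all, and 411344 to 611282 antisense counts. *RAD6* checked the labels: its sense level was 55.8 ± 5.88 CPM (SD, n = 3) in WT untagged, with 0 counts over the 3 rad6Δ untagged libraries and 2 over the 3 rad6Δ tagged libraries. CPM is a count divided by the library's sense total after TMM scaling, times 1e+06. All 10 genes passed the filter on low counts on the sense strand, where 5790 genes were tested. A gene was called where edgeR's quasi-likelihood test gave an adjusted p under 0.05.

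The 10 genes spanned a wide range of levels in growing wild-type cells. Per kilobase of coding sequence, *SST2* was highest in WT untagged at 269 ± 11.4 CPM, followed by *FAR1* at 184 ± 6.91 and *KAR4* at 104 ± 15.3 CPM. *FUS3* at 51.8 ± 6.23 and *STE12* at 41.5 ± 6.53 CPM per kilobase came next, with overlapping SDs. *FUS1* (34.9 ± 1.56), *PRM1* (33.3 ± 2.66) and *FIG1* (27.97 ± 1.16 CPM per kilobase) formed the next set, with *FUS1* and *PRM1* within their spread of each other. *FUS2* was at 9.25 ± 0.811 and *AGA1* lowest at 3.04 ± 0.155 CPM per kilobase. In rad6Δ untagged the order changed: *FAR1* led at 51.4 ± 2.63, *KAR4* (42.0 ± 3.97) and *SST2* (40.9 ± 1.58) did not differ beyond their spread, and *FUS2*, at 8.82 ± 2.20 CPM per kilobase, stood above *FIG1*, *FUS1*, *PRM1* and *AGA1*.

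Without Rad6, 9 of the 10 genes were lower than in the matched wild type, by 2.22-fold to 17.1-fold, and *FUS2* was not. In rad6Δ tagged 9 were called lower, beside 20.2% of all genes, and in rad6Δ untagged 9, beside 20.5%. The H2B-K123R strain also had 9 called lower (12.3% of all genes), rtf1-108-110AAA had 6 (12.6%), rad6-R6Q had 8 (14.5%) and rad6-R6A,M10A had 8 (13.2%). No member was called higher in these comparisons, where 0 were also called higher by DESeq2, beside 21.5%, 22.3%, 14%, 11.9%, 14.6% and 12% of all genes in the same order. The median log2 difference of the 10 genes was -2.65 in rad6Δ tagged, -2.20 for rad6Δ untagged, -1.06 in H2B-K123R, -0.49 for rtf1-108-110AAA, -0.86 for rad6-R6Q and -0.91 in rad6-R6A,M10A, where the median of all genes tested was between -0.02 and 0.02. *AGA1*, *FUS1*, *SST2*, *FAR1*, *KAR4* and *FUS3* were called lower in all 6 mutants, as were 288 of the 5790 genes, with *FUS3* in rtf1-108-110AAA at the edge of the threshold. These counts describe the choice of genes as much as the strains. In these bulk samples fewer expressing cells and less RNA per cell cannot be told apart.

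**Figure D2:**
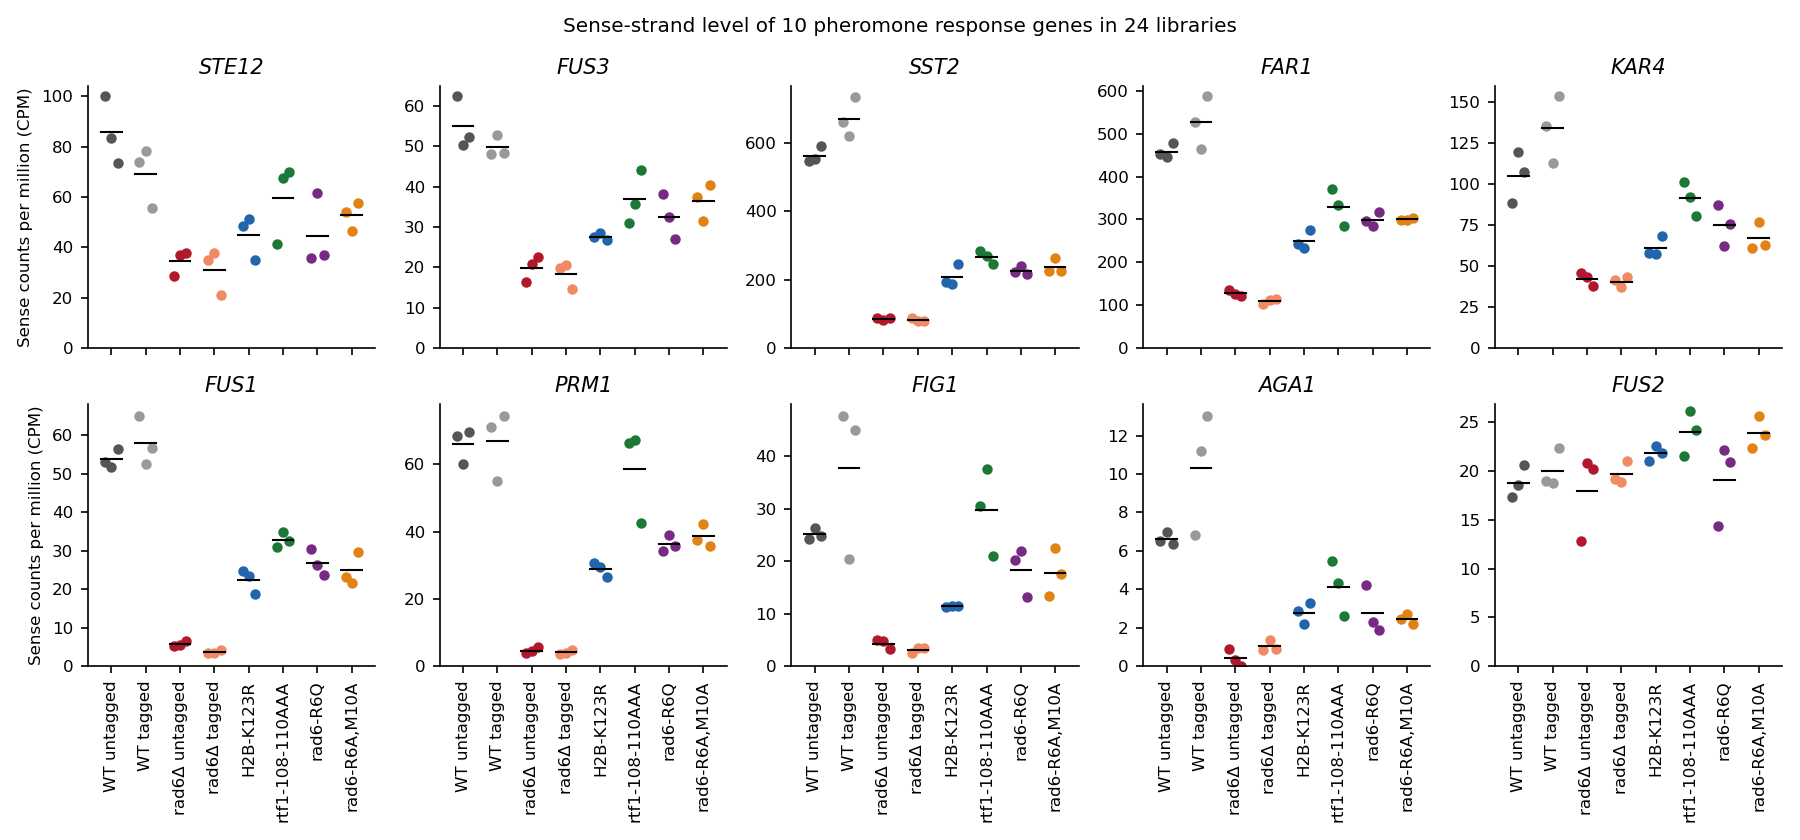
Sense level in CPM (linear axis from 0, separate for each gene) of the 10 genes in the 24 libraries. Points are libraries and black lines are group means of 3. In *SST2*, *FAR1*, *FUS1* and *PRM1* the 6 rad6Δ libraries lie below the libraries of every other group, and *FUS2* stays between 12.8 and 26.2 CPM throughout.

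*SST2* encodes the RGS protein that returns the G protein alpha subunit to its inactive form, and is a negative regulator of the pathway. It stood at 547, 553 and 591 CPM in WT untagged and at 661, 621 and 735 CPM in WT tagged. In rad6Δ untagged it stood at 88.0, 82.0 and 87.4 CPM, and in rad6Δ tagged at 86.8, 80.2 and 78.3 CPM. The rad6Δ libraries were thus close to each other and 6.57-fold (untagged) and 8.22-fold (tagged) below their wild types. H2B-K123R gave 193, 186 and 245 CPM, rtf1-108-110AAA 285.5, 269 and 246 CPM, rad6-R6Q 224, 239 and 216 CPM, and rad6-R6A,M10A 227, 263 and 225 CPM. These 4 substitution strains lay between rad6Δ and wild type without overlap with either, at log2 differences from wild type of -1.44 ± 0.10 (SE), -1.33 ± 0.10, -1.57 ± 0.10 and -1.50 ± 0.10.

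*FUS3*, the MAP kinase, fell less far. Its levels ran from 48.1 to 62.5 CPM over the 6 wild-type libraries, from 14.7 to 22.5 CPM over the 6 rad6Δ libraries and from 26.7 to 28.4 CPM in H2B-K123R. The log2 differences were -1.44 ± 0.16 in rad6Δ tagged, -1.47 ± 0.16 for rad6Δ untagged and -0.998 ± 0.16 in H2B-K123R. They were -0.42 ± 0.16 for rtf1-108-110AAA, -0.61 ± 0.16 for rad6-R6Q and -0.45 ± 0.16 in rad6-R6A,M10A. The call in rtf1-108-110AAA (adjusted p = 0.0498) was lost with median-of-ratios size factors (-0.41), with no filter on low counts (-0.42), with strand-blind counts (-0.41), in a fit of the compared groups alone (-0.41) and with the replicate block (-0.42). It was also lost without its replicate 1 or 2 or without any WT tagged library (-0.29 to -0.47), and that in rad6-R6A,M10A without its replicate 1 or 2 or without any WT tagged library (-0.38 to -0.50).

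*STE12*, which encodes the transcription factor, was at 100, 83.6 and 73.4 CPM in WT untagged and at 73.9, 78.2 and 55.6 CPM in WT tagged. It was at 28.5, 37.2 and 37.8 CPM for rad6Δ untagged, at 34.9, 37.6 and 21.05 CPM in rad6Δ tagged and at 48.5, 51.3 and 35.2 CPM in H2B-K123R. These 3 groups lay wholly below their wild types, by 2.48-fold, 2.22-fold and 1.90-fold. The libraries of rtf1-108-110AAA (41.3, 67.5 and 70.1 CPM), rad6-R6Q (35.7, 61.5 and 37.0 CPM) and rad6-R6A,M10A (54.1, 46.6 and 57.6 CPM) overlapped those of WT tagged, and *STE12* was not called there, at log2 differences of -0.21 ± 0.24, -0.63 ± 0.24 and -0.39 ± 0.24. In rad6-R6Q it was called with DESeq2 (-0.63), with the replicate number as a block (-0.64), without rad6-R6Q replicate 2 (-0.97) or without WT tagged replicate 3 (-0.76). In H2B-K123R it was not called without replicate 3 (-0.77), and in rtf1-108-110AAA the value was 0.02 without replicate 1.

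*FAR1*, the inhibitor of G1 cyclin-kinase complexes that arrests cells on pheromone, had a narrow spread. It ran from 445 to 587 CPM over the wild-type libraries and from 104 to 135 CPM over the rad6Δ libraries. The 4 substitution strains lay between 233 and 370.5 CPM, below every wild-type library. The log2 differences were -2.26 ± 0.11 in rad6Δ tagged, -1.84 ± 0.10 for rad6Δ untagged, -0.87 ± 0.10 in H2B-K123R, -0.68 ± 0.10 for rtf1-108-110AAA and -0.81 ± 0.10 in both rad6-R6Q and rad6-R6A,M10A.

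*KAR4* encodes a transcription factor that acts with Ste12 on genes of nuclear fusion. It ran from 88.8 to 154 CPM over the wild-type libraries, and from 36.996 to 45.8 CPM over the rad6Δ libraries. Differences were -1.72 ± 0.15 (log2) in rad6Δ tagged, -1.31 ± 0.15 for rad6Δ untagged, -0.78 ± 0.14 in H2B-K123R, -0.56 ± 0.14 for rtf1-108-110AAA, -0.84 ± 0.14 for rad6-R6Q and -1.004 ± 0.14 in rad6-R6A,M10A. All 6 mutant groups lay wholly below their own wild type.

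*FUS1* encodes a membrane protein of cell fusion and is a widely used reporter of the pathway. It was at 53.1, 51.6 and 56.3 CPM in WT untagged and at 65.0, 52.5 and 56.6 CPM in WT tagged. It was at 5.14, 5.48 and 6.63 CPM for rad6Δ untagged and at 3.29, 3.33 and 4.29 CPM in rad6Δ tagged, so 9.27-fold and 15.9-fold below. The rad6Δ tagged libraries all lay below the rad6Δ untagged libraries. H2B-K123R gave 24.8, 23.5 and 18.7 CPM, rtf1-108-110AAA 30.9, 34.7 and 32.5 CPM, rad6-R6Q 30.5, 26.2 and 23.8 CPM, and rad6-R6A,M10A 23.1, 21.6 and 29.7 CPM. None of these 12 libraries overlapped wild type or rad6Δ, at log2 differences of -1.26 ± 0.14, -0.83 ± 0.14, -1.11 ± 0.14 and -1.22 ± 0.14.

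*PRM1* encodes a membrane protein needed for fusion of the plasma membranes of mating cells. It was at 68.5, 60.0 and 69.6 CPM in WT untagged and at 71.0, 55.2 and 74.4 CPM in WT tagged. It was at 3.76, 4.39 and 5.52 CPM for rad6Δ untagged and at 3.66, 3.82 and 4.92 CPM in rad6Δ tagged, 14.4-fold and 16.1-fold lower. H2B-K123R gave 30.6, 29.6 and 26.5 CPM, rad6-R6Q 34.3, 38.8 and 35.8 CPM and rad6-R6A,M10A 37.6, 42.3 and 35.8 CPM, all below wild type. In rtf1-108-110AAA 2 libraries, at 66.5 and 67.1 CPM, lay within the wild-type range and replicate 3 at 42.4 CPM lay below it, and *PRM1* was not called (log2 difference -0.19 ± 0.15).

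*FIG1* encodes a membrane protein that takes part in calcium entry during mating. It was at 24.3, 26.3 and 24.7 CPM in WT untagged, and at 47.7, 20.4 and 44.9 CPM in WT tagged, where replicate 2 stood apart. The rad6Δ libraries lay between 2.44 and 4.89 CPM, 12.1-fold (tagged) and 5.90-fold (untagged) below. H2B-K123R was at 11.3 to 11.5 CPM, a log2 difference of -1.13 ± 0.27. The libraries of rtf1-108-110AAA (21.1 to 37.6 CPM) overlapped WT tagged and *FIG1* was not called there (-0.34 ± 0.26). In rad6-R6Q (-1.03 ± 0.26) and rad6-R6A,M10A (-1.08 ± 0.26) it was called although the libraries overlapped those of WT tagged through replicate 2, and both calls were lost in a fit of the compared groups alone (-1.01 and -1.08).

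*AGA1*, which anchors the agglutinin of *MATa* cells to the wall, was the least abundant gene and had the largest errors. Its sense counts were 53, 60 and 52 in WT untagged and 52, 92 and 103 in WT tagged. They were 7, 3 and 0 for rad6Δ untagged and 7, 11 and 7 in rad6Δ tagged. The log2 differences were -4.10 ± 0.49 for rad6Δ untagged and -3.31 ± 0.40 in rad6Δ tagged, and counting error limits both. In the other mutants the counts ran from 18 to 38 and the log2 differences from -1.25 ± 0.35 in H2B-K123R to -2.08 ± 0.35 in rad6-R6A,M10A, without overlap with wild type.

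*FUS2*, whose protein aids cell fusion in the zygote, did not follow the other 9 genes. It was at 17.3, 18.6 and 20.6 CPM in WT untagged and at 18.99, 18.7 and 22.3 CPM in WT tagged. It was at 12.8, 20.8 and 20.2 CPM for rad6Δ untagged and at 19.2, 18.9 and 21.05 CPM in rad6Δ tagged. Both deletions overlapped their wild type, and the log2 differences were -0.06 ± 0.17 and -0.02 ± 0.17. Over the 4 substitution strains it ran from 14.3 to 26.2 CPM, with log2 differences from -0.06 ± 0.16 for rad6-R6Q to 0.26 ± 0.16 for rtf1-108-110AAA. The H2B-K123R and rad6-R6A,M10A libraries all lay above their wild type without a call. Its promoter stretch shown above holds 2 elements, as that of *FUS1* does.

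**Figure D3:**
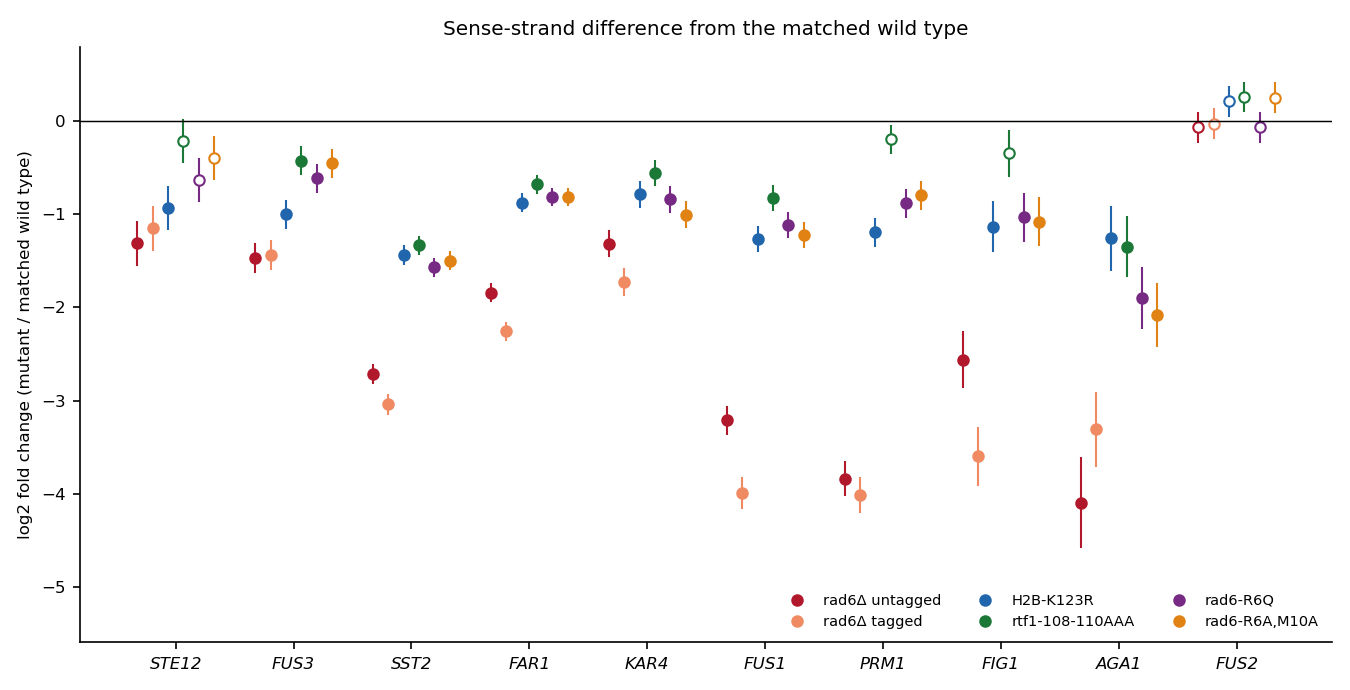
Log2 fold change of sense counts between each mutant and its matched wild type, with the standard error of the fit as bars, for the 10 genes. Filled points were called at an adjusted p under 0.05 and open points were not. The rad6Δ strains are the lowest points for every gene but *FUS2*, where all 6 points lie between -0.06 and 0.26.

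The libraries were also scaled by the *K. lactis* cells added before RNA extraction, in place of TMM. The median log2 difference of all genes tested was then 0.21 (rad6Δ tagged), 0.12 (rad6Δ untagged), -0.09 (H2B-K123R), 0.25 (rtf1-108-110AAA), 0.19 (rad6-R6Q) and, last, 0.21 (rad6-R6A,M10A). With TMM it lay between -0.02 and 0.02, and the differences above are on that scale. With *K. lactis* scaling the genes called lower numbered 9, 9, 9, 4, 7 and 7 in the same order. The share of all genes called with this scaling is not given, so these counts have no background beside them. *FUS3* was then not called in rtf1-108-110AAA (-0.17), rad6-R6Q (-0.40) or rad6-R6A,M10A (-0.23), nor *KAR4* in rtf1-108-110AAA (-0.30). *FUS2* was called higher in rtf1-108-110AAA (0.52) and in rad6-R6A,M10A (0.47), and *PRM1* (0.06) and *STE12* (0.03) changed sign in rtf1-108-110AAA.

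The substitution strains were next set against the strains that lack Rad6, which asks whether the genes differ between losing the enzyme and altering the H2B lysine, Rtf1 or the Rad6 residues. These comparisons use the same rad6Δ libraries whose low values were in view when the genes were chosen, so a higher level than in rad6Δ is in part built into the choice. The values are given as a description, with the number called beside the share of all genes. Higher than in rad6Δ tagged were 9 of the 10 genes in rtf1-108-110AAA (6.44% of all genes), 8 for rad6-R6Q (8.2%) and 7 in rad6-R6A,M10A (3.71%). In H2B-K123R 7 were higher than in rad6Δ untagged (5.25%). *PRM1* differed most in rtf1-108-110AAA, by 3.82 ± 0.19 on the log2 scale, with 3.13 ± 0.19 for rad6-R6Q, 3.22 ± 0.19 in rad6-R6A,M10A and 2.65 ± 0.19 in H2B-K123R. *FUS1* was higher than in rad6Δ by 3.17 ± 0.17 for rtf1-108-110AAA and by 1.95 ± 0.16 in H2B-K123R.

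*SST2*, *FAR1*, *FIG1* and *KAR4* were also higher in all 4 strains. *SST2* differed by 1.28 to 1.71, *FAR1* by 0.97 to 1.58, *FIG1* by 1.43 to 3.25 and *KAR4* by 0.53 to 1.17 on the log2 scale. *FUS3* was higher in the 3 tagged strains by 0.83 to 1.01, and differed by 0.47 ± 0.16 in H2B-K123R, where DESeq2 alone called it (0.48). *STE12* was called higher in rtf1-108-110AAA, by 0.94 ± 0.24. That call was lost in a fit of the compared groups alone (0.95), and without rad6Δ tagged replicate 3 (0.74), rtf1-108-110AAA replicate 2 (0.84) or replicate 3 (0.81). In rad6-R6A,M10A *STE12* differed by 0.76 ± 0.24 without a call, and was called by DESeq2 (0.78) and in the fit of the compared groups (0.77). The *KAR4* call in H2B-K123R (0.53 ± 0.15) was lost without its replicate 3 (0.45), without rad6Δ untagged replicate 2 (0.55) or without replicate 3 of that group (0.46), and with *K. lactis* scaling (0.33).

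*AGA1* was higher in H2B-K123R by 2.84 ± 0.54, in rtf1-108-110AAA by 1.96 ± 0.44 and in rad6-R6Q by 1.41 ± 0.45. In rad6-R6A,M10A the difference was 1.23 ± 0.47 without a call, and it was called by DESeq2 (1.27) and in the compared groups alone (1.24). The call in rad6-R6Q was lost without its replicate 1 (1.01) and without any rad6Δ tagged library (1.27 to 1.63), and in the compared groups alone (1.45). *FUS2* differed from rad6Δ by -0.04 to 0.28 and was not called.

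Among the 3 tagged substitution strains no member was called. The share of all genes called was 0.0345% between rad6-R6Q and rad6-R6A,M10A, 0.0691% between rtf1-108-110AAA and rad6-R6A,M10A and 0% between rtf1-108-110AAA and rad6-R6Q. At an unadjusted p under 0.05 the members numbered 0, 4 and 3, and DESeq2 called 0 in each. The share of all genes at that unadjusted threshold is not given, so these counts have no background beside them. The largest difference between rtf1-108-110AAA and rad6-R6Q was that of *PRM1*, 0.69 ± 0.16 on the log2 scale (adjusted p = 0.634), and without rtf1-108-110AAA replicate 3 it was called (0.89, adjusted p = 0.02). rad6-R6Q and rad6-R6A,M10A differed by -0.32 ± 0.16 (*FUS2*) to 0.18 ± 0.39 (*AGA1*).

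The epitope tags were compared in the same way. No member was called between WT tagged and WT untagged (0.674% of all genes called) or between rad6Δ tagged and rad6Δ untagged (0.207%), and none for the difference of the RAD6 deletion effect between tagged and untagged strains (0.276%). DESeq2 called 0 in each, and at an unadjusted p under 0.05 there were 3, 3 and 4 members. The shares in brackets are at an adjusted p, and the share at the unadjusted p is not given. *FUS1* came nearest: it was 0.67 ± 0.19 log2 lower in rad6Δ tagged than in rad6Δ untagged (adjusted p = 0.276), and its deletion effect differed by -0.78 ± 0.23 (adjusted p = 0.247).

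Antisense counts over the genes were examined in the same libraries. Of the 10 genes, 5 (*PRM1*, *AGA1*, *FUS1*, *FAR1* and *KAR4*) passed the antisense filter, which left 3741 genes. The other 5 had 0 to 13 antisense counts in any library. For *SST2*, with 4460 to 5824 sense counts in wild-type libraries, there were 0 to 9 antisense counts per library. *FUS3*, below the filter, had 1, 1 and 1 antisense counts in WT untagged and 6, 9 and 8 for rad6Δ untagged.

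No wild-type library reached 10 antisense counts, the filter's minimum, over *FUS1* or *AGA1*. Both genes passed the filter only through mutant libraries, which favours higher counts in mutants, so their calls are a description. Antisense counts over *FUS1* and *AGA1* were higher where the sense counts were lower. Over *FUS1* they were 2, 6 and 8 counts in WT untagged and 29, 31 and 34 for rad6Δ untagged, and 5, 4 and 5 in WT tagged and 34, 37 and 39 in rad6Δ tagged. The antisense share of the gene's counts went from 1.17% (mean of WT untagged) to 37.9%, and from 1.01% (WT tagged) to 55.7%. The log2 differences were 2.92 ± 0.37 in rad6Δ tagged (edgeR, adjusted p = 1.03e-06), 2.41 ± 0.37 for rad6Δ untagged (adjusted p = 1.21e-05), 1.74 ± 0.38 in H2B-K123R (adjusted p = 0.000809), 1.21 ± 0.40 for rad6-R6Q (adjusted p = 0.0315) and 1.68 ± 0.40 in rad6-R6A,M10A (adjusted p = 0.00298). In rtf1-108-110AAA it was 0.93 ± 0.42 (adjusted p = 0.119), and 1.24 without replicate 1 (adjusted p = 0.0445). The call in rad6-R6Q was lost without its replicate 2 or 3 or without any WT tagged library (1.06 to 1.26, adjusted p from 0.0646 to 0.124), and with DESeq2 (adjusted p = 0.0957).

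The next gene downstream of *FUS1*, *HBN1* (YCL026C-B), lies on the opposite strand with 63 bases between the coding sequences. The strand-blind counts of *FUS1* were 131 fewer than its sense and antisense counts together. That number equals 31.9% of its antisense counts, but the strand of the missing counts is not known. *HBN1*, chosen after these values were seen, had a sense level of 0.371 ± 0.316 CPM in WT tagged and 1.77 ± 0.371 CPM in rad6Δ tagged, and of 0.607 ± 0.254 CPM in WT untagged and 1.46 ± 0.750 CPM for rad6Δ untagged. Its log2 differences were 2.19 ± 0.57 and 1.29 ± 0.52. These rest on few counts, with sums over 3 libraries of 9 in WT tagged and 43 in rad6Δ tagged. In WT untagged and rad6Δ untagged the sums were 15 and 41. *HBN1* too passed the filter only through mutant libraries, so its differences are a description. Its part in the *FUS1* antisense counts was not tested.

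*AGA1* antisense counts were 2, 0 and 6 in WT untagged and 5, 0 and 2 in WT tagged, and rose to 21, 20 and 23 for rad6Δ untagged and to 17, 20 and 16 in rad6Δ tagged. In both rad6Δ groups they exceeded the sense counts. The log2 differences were 2.82 ± 0.60 for rad6Δ untagged (adjusted p = 0.000669), 2.82 ± 0.62 in rad6Δ tagged (adjusted p = 0.000943), 1.93 ± 0.63 in H2B-K123R (adjusted p = 0.0187), 2.15 ± 0.64 for rtf1-108-110AAA (adjusted p = 0.0168), 2.14 ± 0.63 for rad6-R6Q (adjusted p = 0.0152) and 2.68 ± 0.62 in rad6-R6A,M10A (adjusted p = 0.00264). In rad6-R6A,M10A the antisense counts were 12, 27 and 12. The wild-type counts are few: the H2B-K123R call was lost without WT untagged replicate 1 (1.77, adjusted p = 0.0722) or 2 (1.35, adjusted p = 0.1), and was 3.25 without replicate 3. The rtf1-108-110AAA call was lost without its replicate 1 (1.83, adjusted p = 0.0695), and the rtf1-108-110AAA and rad6-R6Q calls without WT tagged replicate 2 (1.58, adjusted p = 0.0927, and 1.54, adjusted p = 0.0912) or 3 (2.05, adjusted p = 0.0639, and 2.05, adjusted p = 0.0595), while without WT tagged replicate 1 the values were 3.29 and 3.275.

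*PRM1* had the most antisense counts, and these did not follow the sense strand. They were 18.8, 23.1 and 23.7 CPM in WT untagged and 39.4, 41.6 and 45.0 CPM in WT tagged, a difference between wild types that was not tested. In rad6Δ untagged they were 28.1, 26.2 and 30.2 CPM, and in rad6Δ tagged 29.8, 25.5 and 26.8 CPM, above the sense level in every library, so that antisense made up 86.1% and 86.85% of the counts over the gene. Against their own wild types the log2 differences were 0.36 ± 0.14 (adjusted p = 0.0554) and -0.62 ± 0.14 (adjusted p = 0.00142). In H2B-K123R *PRM1* antisense was higher by 0.46 ± 0.14 (adjusted p = 0.0147), a call lost without its replicate 2 (0.41, adjusted p = 0.063) or WT untagged replicate 1 (0.36, adjusted p = 0.101), and with *K. lactis* scaling (0.38, adjusted p = 0.0762). In the tagged substitution strains it was lower than in WT tagged, by -1.10 ± 0.14 (rtf1-108-110AAA, adjusted p = 2.44e-06), -1.01 ± 0.14 (rad6-R6Q, adjusted p = 7.75e-06) and -0.95 ± 0.14 (rad6-R6A,M10A, adjusted p = 1.74e-05). The levels in these strains were 19.6 ± 1.63, 20.9 ± 0.435 and 21.7 ± 5.39 CPM. They lay near the 21.9 ± 2.71 CPM of WT untagged, while WT tagged stood apart at 42.0 ± 2.83 CPM.

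*KAR4* antisense was at 12.035 ± 1.22 CPM in WT untagged and 14.2 ± 1.06 CPM in WT tagged. It was lower in rad6Δ tagged (log2 difference -0.73 ± 0.19, adjusted p = 0.00382), rtf1-108-110AAA (-0.56 ± 0.18, adjusted p = 0.0311), rad6-R6Q (-0.58 ± 0.18, adjusted p = 0.0222) and rad6-R6A,M10A (-0.53 ± 0.18, adjusted p = 0.0397). The rtf1-108-110AAA call was lost without its replicate 2 or 3 or WT tagged replicate 2 or 3 (-0.39 to -0.57), the rad6-R6A,M10A call without its replicate 1 or 3 or WT tagged replicate 2 or 3 (-0.47 to -0.54), and the rad6-R6Q call without its replicate 2 (-0.50) or WT tagged replicate 3 (-0.52). With *K. lactis* scaling it was not called in rtf1-108-110AAA (-0.31), rad6-R6Q (-0.37) or rad6-R6A,M10A (-0.32). *FAR1* antisense was lower in rtf1-108-110AAA (-0.56 ± 0.18, adjusted p = 0.0228). That call was lost without replicate 1 (-0.53), replicate 2 (-0.54) or WT tagged replicate 1 (-0.39) and with *K. lactis* scaling (-0.32). In rad6-R6Q it was -0.47 ± 0.17 (adjusted p = 0.0521), and was called with the replicate number as a block (-0.47, adjusted p = 0.0355), without rad6-R6Q replicate 2 (-0.60, adjusted p = 0.0316) or without WT tagged replicate 3 (-0.60, adjusted p = 0.0251).

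**Figure D4:**
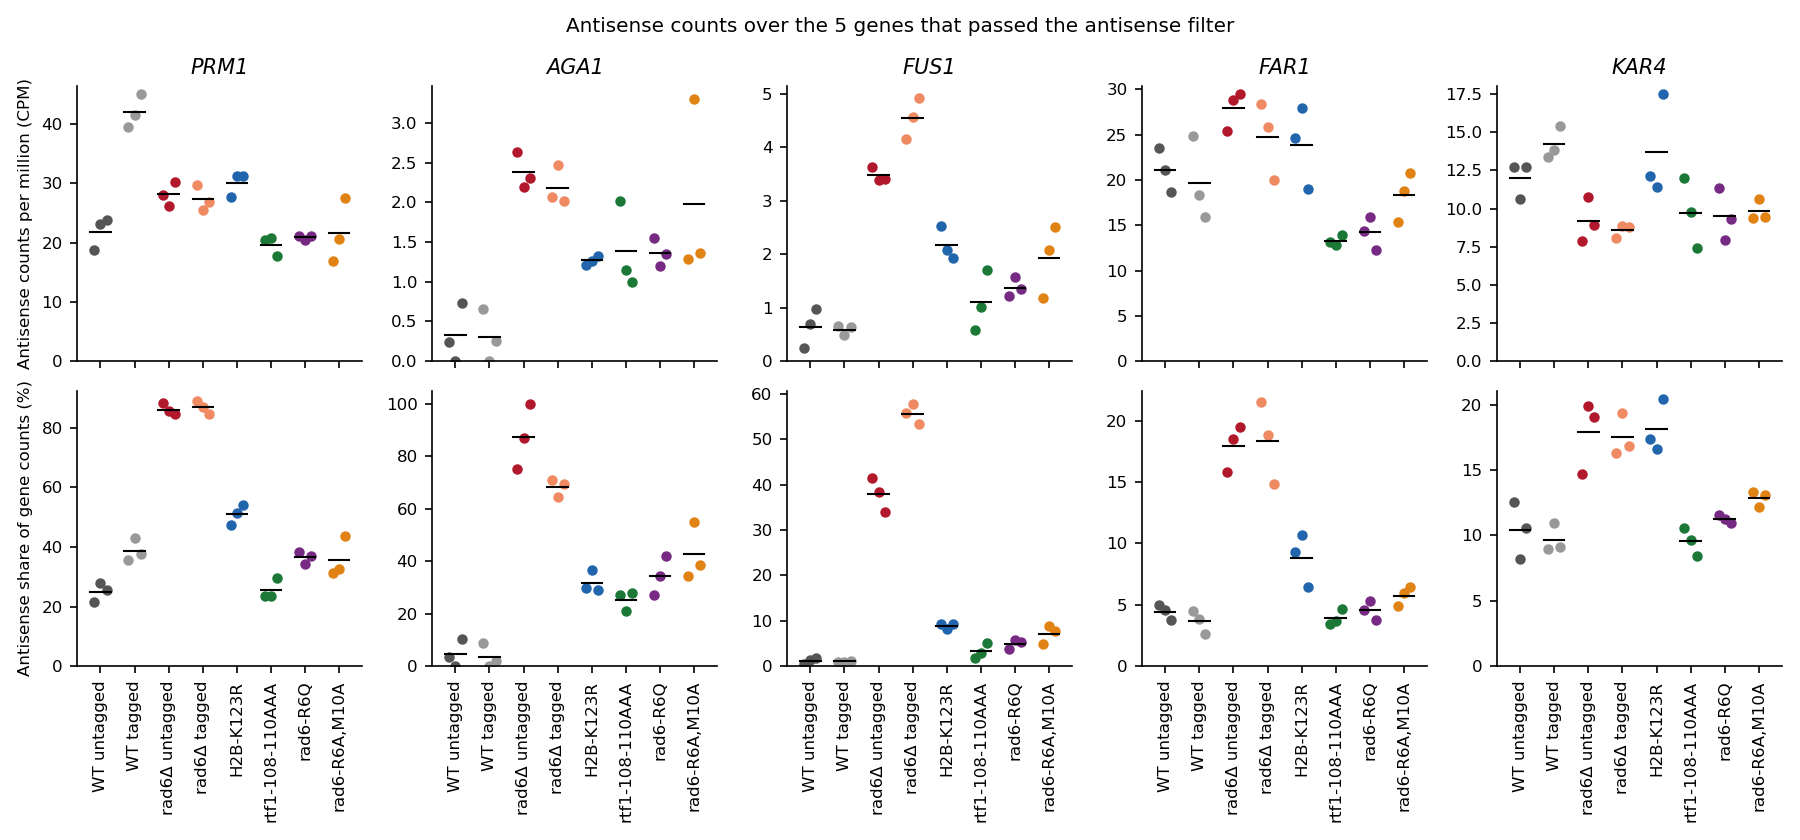
Antisense level in CPM (top) and antisense counts as a percentage of sense and antisense counts (bottom) for the 5 genes that passed the antisense filter, by library (points) with group means (lines); axes start at 0. The group means of *FUS1* and *AGA1* antisense are highest in rad6Δ, while the highest single *AGA1* library is rad6-R6A,M10A replicate 2 at 3.30 CPM. *PRM1* antisense is highest in WT tagged, and the antisense share over *PRM1* reaches 84.5 to 89.1% in rad6Δ.

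Counted by direction, antisense calls among the 5 members in rad6Δ tagged were 2 lower (12.9% of genes tested) and 2 higher (15.3%). In rad6Δ untagged they were 0 lower (6.76%) and 2 higher (22.7%), with 5 members at an unadjusted p under 0.05 in either direction. In H2B-K123R they were 0 lower (4.17%) and 3 higher (28.8%), with 3 at an unadjusted p under 0.05. In rtf1-108-110AAA they were 3 lower (9.46%) and 1 higher (11%), in rad6-R6Q 2 lower (11.5%) and 2 higher (9.94%), and in rad6-R6A,M10A 2 lower (8.26%) and 2 higher (10.5%). DESeq2 also called 0 lower in rad6Δ untagged and in H2B-K123R. All higher edgeR calls but that of *PRM1* in H2B-K123R were of *FUS1* or *AGA1*, which passed the filter only through mutant libraries. The shares in brackets are at an adjusted p under 0.05, and the share at the unadjusted p is not given.

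Because of the antisense counts, the strand matters for the size of the sense difference. In the table counted without regard to strand, *PRM1* differed from wild type by -1.80 in place of -4.01 (log2) in rad6Δ tagged, by -1.45 in place of -3.84 for rad6Δ untagged and by -0.60 in place of -1.19 in H2B-K123R. *AGA1* differed by -1.73 in place of -3.31, by -1.36 in place of -4.10 and by -0.81 in place of -1.25 in the same strains, and by -1.27 in place of -2.08 in rad6-R6A,M10A. In that table *PRM1* was called lower in rtf1-108-110AAA (-0.48). Against rad6Δ, *AGA1* was not called higher in rtf1-108-110AAA (0.76), rad6-R6Q (0.35) or H2B-K123R (0.55), *PRM1* differed by 0.85 to 1.32, and *FUS1* by 1.77 to 2.10 in the tagged strains.

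The other genes of the pathway were taken from lists chosen with earlier results of these data known, 82 genes in all. Of these, 42 were lower and 10 higher in rad6Δ tagged, 44 and 9 for rad6Δ untagged, 28 and 4 in H2B-K123R, 22 and 3 for rtf1-108-110AAA, 34 and 2 for rad6-R6Q, with 29 and 3 for rad6-R6A,M10A. Over all genes tested the shares lower and higher were those given above, 20.2% and 21.5% in rad6Δ tagged and 12.6% and 11.9% in rtf1-108-110AAA, for example. With *K. lactis* scaling the list counts were 9 lower and 12 higher for rtf1-108-110AAA, 17 and 9 for rad6-R6A,M10A, and 20 and 10 for rad6-R6Q. For that scaling the shares of all genes are not given. The a-specific genes, which give *MATa* cells their receptor, pheromone and protease, had all 7 called lower in 5 mutants and 5 of 7 for rtf1-108-110AAA, with medians from -2.48 (rad6Δ tagged) to -0.69 (rtf1-108-110AAA). *MFA1*, a gene for a-factor, differed by -3.71 ± 0.26 in rad6Δ tagged and by -1.37 ± 0.23 to -1.75 ± 0.22 in the substitution strains. *MFA2*, the other a-factor gene, differed by -2.21 ± 0.26 in rad6Δ tagged, and *BAR1*, the protease that degrades alpha-factor, by -2.68 ± 0.10. In H2B-K123R the *MFA2* call was lost without replicate 1 (-0.71), replicate 3 (-0.72) or WT untagged replicate 1 (-0.51), and in rad6-R6Q in a fit of the compared groups alone (-1.04). With *K. lactis* scaling *BAR1* (-0.25) and *STE6*, the a-factor exporter (-0.25), were not called in rtf1-108-110AAA, nor *STE6* in rad6-R6Q (-0.23), where it was also lost in the compared groups alone (-0.42). *STE2*, the alpha-factor receptor, went from 1147 ± 28.3 CPM in WT untagged to 237 ± 7.61 CPM for rad6Δ untagged and 605 ± 66.7 CPM in H2B-K123R.

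In the G protein and kinase cascade 6 of 12 genes were lower in each rad6Δ comparison (20.2% and 20.5% of all genes), 3 in H2B-K123R (12.3%) and 2 in each of the other mutants (12.6% to 14.5%), the last near the share of all genes. Higher were 1 in rad6Δ tagged (21.5%), 2 in rad6Δ untagged (22.3%) and 0 in the other mutants (11.9% to 14.6%). *GPA1* and *STE4*, the alpha and beta subunits, were lower in all 6. *GPA1* differed by -1.39 ± 0.10 in rad6Δ tagged and by -0.34 ± 0.09 for rtf1-108-110AAA, and *STE4* by -1.23 ± 0.08 and -0.42 ± 0.08. With *K. lactis* scaling *GPA1* was not called in rtf1-108-110AAA (-0.08), rad6-R6Q (-0.16) or rad6-R6A,M10A (-0.25), nor *STE4* in rtf1-108-110AAA (-0.17) or rad6-R6Q (-0.16), and the *GPA1* call in rtf1-108-110AAA was lost without rtf1-108-110AAA replicate 2 (-0.30) or WT tagged replicate 3 (-0.27). In a fit of the compared groups alone *GPA1* was not called in rtf1-108-110AAA (-0.32) or rad6-R6Q (-0.35), nor *STE4* in rad6-R6Q (-0.35). Of the 8 phosphatases and regulators, 1 (*PTP3*, a phosphatase that acts on Fus3) was lower in all 6, by -0.90 ± 0.19 in rad6Δ tagged and -0.63 ± 0.18 for rtf1-108-110AAA, where the call was lost without rtf1-108-110AAA replicate 1 (-0.45) or WT tagged replicate 2 (-0.54). In rad6-R6A,M10A it was lost without replicate 1 (-0.61). *PTP3* was not called in either strain with *K. lactis* scaling (-0.38 and -0.50), nor in rtf1-108-110AAA in the compared groups alone (-0.62).

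Among the other fusion and karyogamy genes, 14 of 15 were tested. Lower were 10 in rad6Δ tagged, 9 for rad6Δ untagged, 5 in H2B-K123R, 5 for rtf1-108-110AAA, 8 for rad6-R6Q and 6 in rad6-R6A,M10A, with 2, 2, 1, 1, 1 and 1 higher. Over all genes 12.3% to 20.5% were lower and 11.9% to 22.3% higher. *PRM4*, *PRM8* and *KAR5*, a gene of nuclear fusion, were lower in all 6, by -1.80 ± 0.26, -1.05 ± 0.22 and -1.36 ± 0.14 in rad6Δ tagged. Over all genes 288 of 5790 (4.97%) were lower in all 6 and 278 (4.8%) higher in all 6. *KAR3*, a kinesin of nuclear fusion that also works in the mitotic spindle, was the 1 gene of the 14 higher in all 6, near that share. It differed by 0.75 ± 0.12 in rad6Δ tagged and 0.40 ± 0.12 in H2B-K123R, where the call was lost without replicate 2 (0.36) or WT untagged replicate 1 (0.36) or 3 (0.29). Single libraries also ended calls of *PRM4* in rtf1-108-110AAA (-0.53 without replicate 1, -0.74 without replicate 2, -0.69 without WT tagged replicate 2 and -0.75 without replicate 3) and in rad6-R6A,M10A (-0.65 without replicate 1), of *PRM8* in H2B-K123R (-0.60 without replicate 3) and of *KAR5* there (-0.43 without WT untagged replicate 2). Under *K. lactis* scaling *PRM4* (-0.50) and *KAR5* (-0.33) were not called in rtf1-108-110AAA, nor *KAR3* in H2B-K123R (0.31). *PRM4* was also not called in rtf1-108-110AAA in the compared groups alone (-0.74) or in H2B-K123R with strand-blind counts (-0.21).

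**Figure D5:**
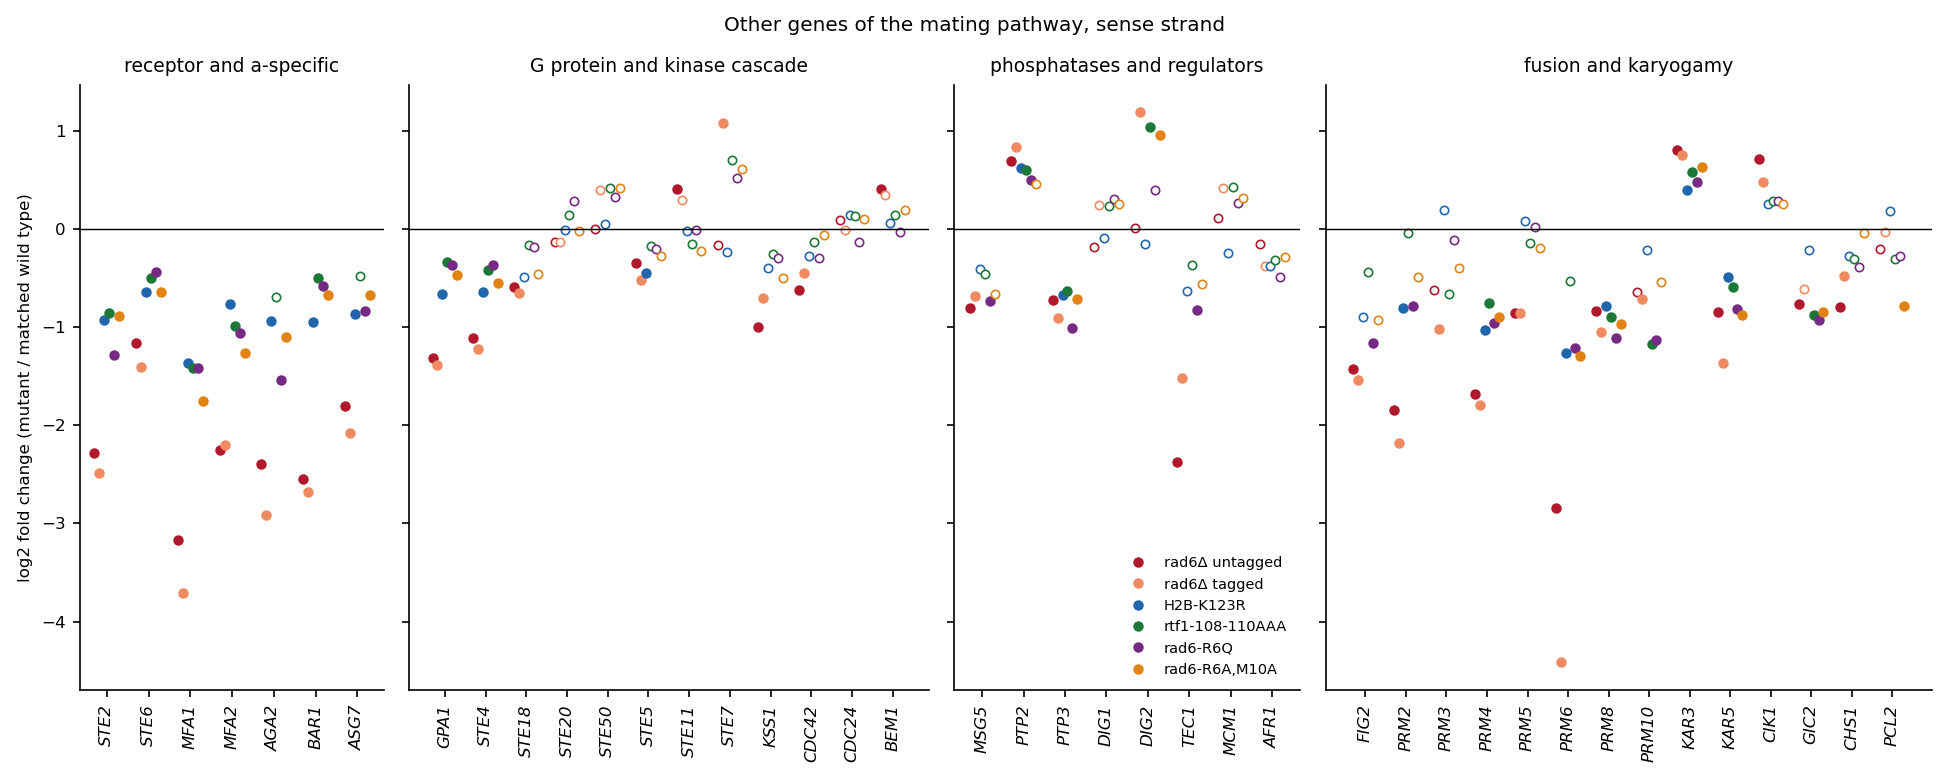
Log2 fold change of sense counts against the matched wild type for other genes of the mating pathway in 4 lists, with filled points called at an adjusted p under 0.05 and open points not. The a-specific genes lie lowest in rad6Δ, *GPA1* and *STE4* are below 0 in all 6 mutants and *KAR3* is above 0 in all 6.

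Markers of other cell states did not all move with these genes, and their part in the results was not tested. The summed level of the 8 alpha-specific genes was 5.88 to 7.73 CPM in WT untagged, 5.92 to 7.67 CPM for rad6Δ untagged and 9.07 to 12.4 CPM in H2B-K123R. It was 5.93 to 6.81 CPM in WT tagged and 5.49 to 8.88 CPM in rad6Δ tagged, beside 3105 to 3231 CPM for the 7 a-specific genes in WT untagged. Of the 8, 4 were at 0 in every library, and these are the alpha genes of *MAT* and *HML*, whose identical copies make their counts uninformative. *STE3*, the a-factor receptor of alpha cells, was at 4.10 ± 0.433 CPM in WT untagged and 7.83 ± 0.895 CPM in H2B-K123R. It was called higher in rad6Δ tagged (log2 difference 0.79 ± 0.20). Only 3 alpha-specific genes were tested, and in rad6Δ tagged 1 was higher (21.5% of all genes) and 1 lower (20.2%). In rad6Δ untagged 0 were higher (22.3%) and 1 lower (20.5%), and in H2B-K123R 2 higher (14%) and 0 lower (12.3%). In rad6-R6A,M10A 1 was higher (12%) and 0 lower (13.2%), with 0 called in rtf1-108-110AAA or rad6-R6Q. The summed level of 8 genes of the M/G1 phase was 711 to 740 CPM in WT untagged and 349 to 355 CPM for rad6Δ untagged, and that of 8 genes of the G1/S phase 1019 to 1213 and 462 to 563 CPM. The 8 genes of the G2/M phase summed to 832 to 840 and 1031 to 1050 CPM. The 4 filamentation genes, which share Ste12 with the mating pathway, summed to 14.1 to 17.4 and 5.92 to 7.83 CPM. In H2B-K123R the G2/M sum was 803 to 897 CPM. In WT tagged it was 858 to 896, in rad6Δ tagged 1011 to 1022, in rtf1-108-110AAA 898 to 914, in rad6-R6Q 927 to 954 and in rad6-R6A,M10A 872 to 889 CPM. Of the 8 G2/M genes 3 were called higher in each rad6Δ comparison (21.5% and 22.3% of all genes), and 1 lower in rad6Δ tagged (20.2%). Of the 10 haploid-specific genes, 9 were lower in rad6Δ tagged (20.2% of all genes), 8 in rad6Δ untagged (20.5%) and 7 in H2B-K123R (12.3%). Lower were also 5 for rtf1-108-110AAA (12.6%), 6 for rad6-R6Q (14.5%) and 6 in rad6-R6A,M10A (13.2%). In each rad6Δ strain 1 was higher, beside 21.5% and 22.3% of all genes, and 0 in the other mutants. Of the 10, 5 were lower in all 6 mutants, and the 4 with the largest mean change are named. In all 6 mutants, besides *GPA1* and *STE4*, *AMN1*, a regulator of daughter cell separation, and *NEJ1*, a factor of DNA end joining, were lower, by -1.55 ± 0.13 and -0.47 ± 0.12 in rad6Δ tagged. *DSE1* and *DSE2*, daughter-specific genes of the M/G1 list, and *RNR1* and *POL30*, genes of DNA synthesis in the G1/S list, were also lower in all 6, by -1.40 ± 0.11, -1.41 ± 0.21, -1.16 ± 0.17 and -0.87 ± 0.15 in rad6Δ tagged. The weakest of these calls, *DSE2* in H2B-K123R (-0.57 ± 0.20) and *POL30* in rtf1-108-110AAA (-0.47 ± 0.15) and rad6-R6A,M10A (-0.44 ± 0.15), were lost without single libraries, at -0.43 to -0.58, -0.31 to -0.47 and -0.34 to -0.47. *NEJ1* under *K. lactis* scaling was not called in rad6Δ tagged (-0.28) or rtf1-108-110AAA (-0.29), nor *RNR1* in rtf1-108-110AAA (-0.47), nor *POL30* in rtf1-108-110AAA (-0.22) or rad6-R6A,M10A (-0.23). *POL30* was also not called there with strand-blind counts (-0.47 and -0.42), nor in rtf1-108-110AAA in the compared groups alone (-0.45).

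Over the 24 libraries, the non-member genes with the pattern most like *SST2* by Pearson's r of log2 CPM, among 4596 genes averaging 10 CPM or more, were *STE4* (0.967), *MFA1* (0.966), *KES1* (0.966), *STE6* (0.961) and *AMN1* (0.960). Those most like *FUS1* were *BAR1* (0.992), *STE4* (0.974), *GPA1* (0.958), *MFA1* (0.958) and *AMN1* (0.957). Among the members, *FAR1* was closest to both, with r of 0.977 with *SST2* and 0.978 with *FUS1*, and *FUS2* farthest, with 0.128 and 0.204. These libraries fall into 8 groups, with rad6Δ at one end, so r mainly describes the order of the groups.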

How the data were processed

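The authors deposited raw counts per gene in 4 tables: sense, antisense and strand-blind counts for 6571 *S. cerevisiae* genes and counts for 5508 *K. lactis* genes, with no normalization. Per the labels' protocols, 9 parts of *S. cerevisiae* cells were mixed with 1 part of *K. lactis* cells before hot acid phenol extraction, ribosomal RNA was depleted and libraries were made with a directional kit. Per the submitters' processing notes, STAR 2.7.5a, featureCounts and DESeq2 were used with R64 (sacCer3); their settings are not given in the sources used here. Groups and replicate numbers came from the sample titles.

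Sense counts were fitted with edgeR 4.0.16 (with limma 3.58.1, R 4.3.3): 8 group means, all 24 libraries, TMM, the filterByExpr filter, and the robust quasi-likelihood F test with Benjamini-Hochberg adjustment over all 5790 genes. Antisense counts used the sense library sizes and TMM factors, over 3741 genes. Alternatives were median-of-ratios size factors, *K. lactis* scaling, DESeq2 1.42.0, no low-count filter, a fit of the compared groups alone, the replicate number as a block, each replicate left out and strand-blind counts. Replicate numbers pair the samples where all 3 same-numbered pairs deviated together with a correlation above 0.1: rad6Δ tagged with WT tagged (0.19 to 0.52), rad6-R6Q with WT tagged (0.27 to 0.42) and rad6-R6Q with rad6Δ tagged (0.17 to 0.41). Where the block changed a member's call there, its value is printed.

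The members and lists were chosen with earlier results of these data known. Genes are named by this rule: all 10 members, *RAD6*, from each list the genes called the same way in all 6 mutants (beyond 4, the 4 with the largest mean change), *STE2*, *GPA1*, *STE4* and *STE3*, members called in the other contrasts or past the antisense filter, and the 5 genes most like *SST2* and *FUS1*. Promoters came from the R64 genome. No member has a near-identical copy in R64. In the main fit the p-values weigh a group difference against the spread between libraries of a group, estimated over all 8 groups of 3. These samples are called biological replicates in the labels.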

Additional observations from a re-analysis of the deposited data

How the results depend on the processing

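The counts of members called lower than wild type on the sense strand stayed within 1.5 times under every alternative run. Shares of all genes called are not given for the alternatives, so their counts have no background beside them. *K. lactis* scaling called 1 member higher in rtf1-108-110AAA and 1 in rad6-R6A,M10A. Among the 82 pathway list genes it gave 16 higher in rad6Δ tagged, 9 lower and 12 higher in rtf1-108-110AAA, 20 lower and 10 higher in rad6-R6Q, and 17 lower and 9 higher in rad6-R6A,M10A. The fit of the compared groups alone gave 21 lower and 1 higher in rad6-R6Q, DESeq2 gave 4 higher there, and strand-blind counts gave 4 higher there and 8 higher in H2B-K123R. Leaving out 1 replicate gave 2 to 4 list genes higher in H2B-K123R, 1 to 3 in rad6-R6Q and 3 to 5 in rad6-R6A,M10A, and 0 to 1 member higher in rtf1-108-110AAA than in rad6-R6Q.

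On the antisense strand, members called higher in rad6Δ untagged numbered 4 with *K. lactis* scaling, with the replicate block and in the fit of the compared groups. In rtf1-108-110AAA *K. lactis* scaling gave 1 lower and 2 higher, and the compared groups alone 0 higher. In rad6-R6Q *K. lactis* scaling gave 1 lower, and no filter and DESeq2 gave 1 higher. In rad6-R6A,M10A *K. lactis* scaling, no filter and DESeq2 gave 1 lower, and the compared groups alone 1 higher. Leaving out 1 replicate gave 1 to 2 lower and 0 to 1 higher in rtf1-108-110AAA, 0 to 2 higher in rad6-R6Q and 1 to 2 lower in rad6-R6A,M10A. *FUS3* antisense, with no filter on low counts, was called higher in rad6Δ untagged (2.68) and in H2B-K123R (2.60). The shorter core TGAAAC was in 19.9% of all promoters.

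Values that changed sign were small in the main fit. With *K. lactis* scaling *FUS2* was at 0.17 (rad6Δ tagged), 0.069 (rad6Δ untagged) and 0.15 (rad6-R6Q), and the compared groups alone gave 0.0021 for rad6-R6Q against rad6Δ tagged. Without single replicates *FUS2* ran from -0.091 to 0.063 (rad6Δ tagged), from -0.18 to 0.13 (rad6Δ untagged), from -0.22 to 0.10 (rad6-R6Q) and from -0.19 to 0.13 (rad6-R6Q against rad6Δ tagged). For rtf1-108-110AAA *K. lactis* scaling gave 0.060 for *PRM1* and 0.030 for *STE12*, and without single replicates *STE12* ran from -0.35 to 0.018 and *STE3* from -0.061 to 0.13. Without single replicates antisense *KAR4* ran from -0.017 to 0.28 (H2B-K123R) and antisense *FAR1* from -0.24 to 0.068 (rad6-R6A,M10A), the latter at 0.11 with *K. lactis* scaling. The cause of these changes was not tested.

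The main fit held no term for the replicate number. Outside the 3 comparisons with pairing, the same-numbered pairs did not all have a correlation above 0.1. Still, 18 of 24 libraries were closest, among libraries of other groups, to one with the same number. In those unpaired comparisons the replicate block ended the *FUS3* call in rtf1-108-110AAA (-0.42). It gave calls for *STE12* in rad6-R6A,M10A against rad6Δ tagged (0.79) and for antisense *PRM1* (0.37) and *FAR1* (0.41) in rad6Δ untagged. Beside the *STE12* and antisense *FAR1* calls in rad6-R6Q given above, it changed no other member's call. Low counts limit *AGA1*, with 0 to 11 sense counts in rad6Δ libraries, and antisense counts of *FUS1* and *AGA1* in wild type.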
